A study of Mus musculus with 2 samples.

Results

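The 9 genes described here, *Vwf*, *F8*, *Thbd*, *Procr*, *Tfpi*, *Plat*, *Plau*, *Egfl7* and *Nos3*, encode proteins by which the vessel wall controls clotting, clot removal and platelet adhesion, together with the endothelial matrix protein EGFL7. They were taken by symbol from a table of 53465 mouse genes, and all 9 were found once each. RNA was sequenced from isolated endothelial cells of C57Bl/6 mice of the genotype tie2-cre that had been treated with NeuroD1 (1 library) or with GFP (1 library). The labels state that cells of 3 mice were collected and that 10000 cells were lysed. Both groups carry the Cre recombinase, driven by the Tie2 promoter, which is active in endothelial cells and also in blood-forming cells. Age, sex, vector, dose, time after treatment and whether these animals had a stroke are not given in the sources used here.

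Quiescent endothelium keeps blood fluid. It binds thrombin and turns it into an activator of protein C, blocks the tissue factor pathway, releases plasminogen activators that dissolve fibrin, and makes nitric oxide, which holds platelets at rest. The same cells store von Willebrand factor, which tethers platelets once the wall is damaged.

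Each group holds 1 library, so the spread between replicates is unknown and no test was run. Levels are given in FPKM, that is, fragments scaled by the exon length of the gene and by the size of the library. Reads per gene were recovered from the FPKM, and ratios of NeuroD1 over GFP carry exact Clopper-Pearson 95% intervals from those reads, which cover counting error only. Between these libraries protein-coding genes with at least 20 reads varied more than counting allows, with a variance of 1.76 times counting variance judged from the median gene and 3.54 times judged from the mean. The 10 most deviant of 14791 genes made up 48.5% of the sum behind that mean, and without them it was 1.83.

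Recovered reads summed to 2001425 in the NeuroD1 library and 2011126 in the GFP library, and the predicted gene *Gm10800* took 41.9% of them in NeuroD1 and 37.7% in GFP. The FPKM imply library totals of 1950269 in NeuroD1 and 2208978 in GFP, which differ from these sums. Without genes above 1000 FPKM in one library or both, recovered reads summed to 851963 in NeuroD1 and 958795 in GFP. *Neurod1* itself stood at 182 FPKM in NeuroD1 and 0.664 FPKM in GFP, as the labels would have it. Of 17 endothelial markers 14 were above the 95th percentile of chemoreceptor genes in each library, with *Cldn5*, a tight junction protein, at 31.5 FPKM in NeuroD1 and 33.9 FPKM in GFP and *Pecam1*, an adhesion molecule, at 14.4 FPKM in NeuroD1 and 12.4 FPKM in GFP. Chemoreceptor genes, which encode receptors of smell and taste, served as a reference for low-level reads. Whether endothelium uses single ones was not checked. The 1515 of them had a median of 1.40 FPKM in NeuroD1 and 1.54 FPKM in GFP. Their 95th percentile was 4.79 FPKM in NeuroD1 and 4.38 FPKM in GFP, and each member is set against this range below.

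In the NeuroD1 library the 9 genes lay between 2.48 and 10.6 FPKM with a median of 7.80 FPKM, and in the GFP library between 1.74 and 11.3 FPKM with a median of 5.56 FPKM. *Procr*, *Egfl7*, *Plat*, *Vwf* and *Plau* were above the chemoreceptor 95th percentile in both libraries, and *Tfpi* was above it in GFP but not in NeuroD1. *Nos3*, *F8* and *Thbd* were within the chemoreceptor range in both. *Egfl7* and *Vwf* were higher in NeuroD1 and *Plat* was lower, each with a counting interval that excluded 1, while the intervals of the other 6 genes held 1.

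**Figure D1:**
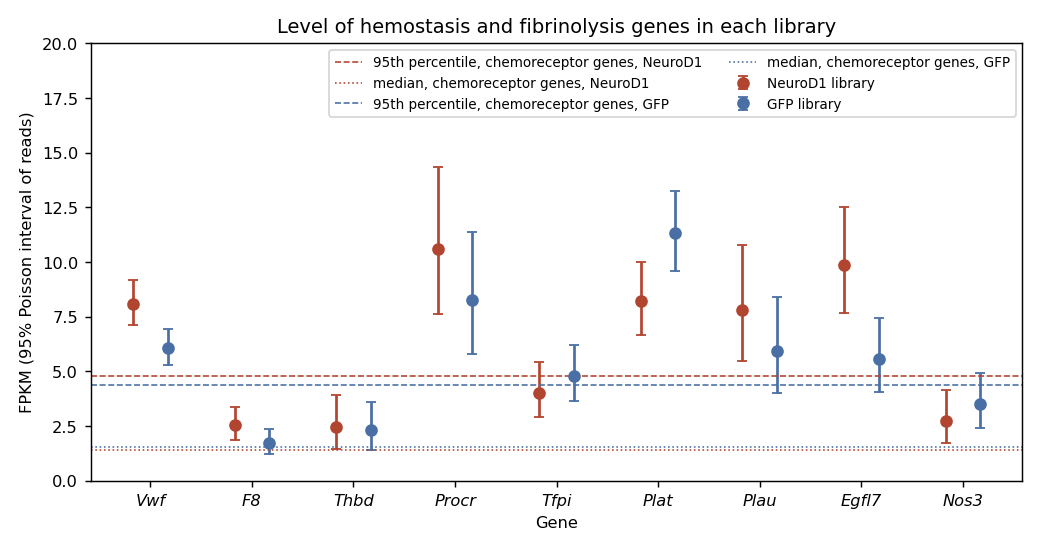
Level of the 9 genes in FPKM in the NeuroD1 library (left point of each pair) and the GFP library (right point), with exact Poisson 95% intervals of the recovered reads. Dashed lines mark the 95th percentile and dotted lines the median of 1515 chemoreceptor genes in each library; 5 genes in NeuroD1 and 6 in GFP lie above the dashed line of their library.

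*Vwf* encodes von Willebrand factor, the large adhesive glycoprotein that endothelial cells and megakaryocytes make, that tethers platelets and that carries coagulation factor VIII in plasma. The gene (ENSMUSG00000001930) lies on the plus strand of GRCm38 chromosome 6 from 125546774 to 125686679. It stood at 8.11 FPKM in NeuroD1 (254 reads, Poisson interval 7.14 to 9.17 FPKM) and 6.06 FPKM in GFP (215 reads, interval 5.28 to 6.93 FPKM). Those intervals do not overlap, and the ratio was 1.34 (interval 1.11 to 1.61). With the interval widened by the median-based variance between the libraries it was 1.05 to 1.70, and by the mean-based one 0.951 to 1.88, which holds 1. When FPKM were rescaled to an equal total in each library, the ratio was 1.14 (interval 0.944 to 1.37), so that the exclusion of 1 was lost. The log2(FPKM + 1) difference was 0.16 in that setting, and 0.37 when genes above 1000 FPKM were left out of the total.

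Because megakaryocytes and platelets also carry *Vwf* RNA, platelet markers are given beside it. The 13 platelet markers summed to 39.9 FPKM in NeuroD1 and 51.3 FPKM in GFP, and none was listed at 0. In their log2(FPKM + 1) difference 3 of 13 were above 0, against 48.4% of protein-coding genes at 1 FPKM or more. Of the 13, 3 in NeuroD1 and 5 in GFP were above the chemoreceptor 95th percentile, so most lay within that range. *Gp1ba*, the platelet receptor for von Willebrand factor, stood at 4.72 FPKM in NeuroD1 and 9.49 FPKM in GFP (ratio 0.497, interval 0.297 to 0.808). The marker sum was thus lower where *Vwf* was higher, and its part in the *Vwf* difference was not tested. In bulk samples of this kind, fewer cells of a type and less RNA per cell cannot be told apart.

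*F8* encodes factor VIII, the cofactor that speeds the activation of factor X. It lies on the minus strand of chromosome X from 75172715 to 75382615 (ENSMUSG00000031196), with 9905 bases of merged exon. It stood at 2.54 FPKM in NeuroD1 (49 reads, interval 1.88 to 3.35 FPKM) and 1.74 FPKM in GFP (38 reads, interval 1.23 to 2.38 FPKM). These intervals overlap, and the ratio of 1.46 had an interval of 0.937 to 2.29. In GFP 42.4% of chemoreceptor genes were at or above the *F8* level, and in NeuroD1 20.1% were, so *F8* stood within the bulk of chemoreceptor genes in GFP. With the chemoreceptor median subtracted from the FPKM of each library, its log2(FPKM + 1) difference went from 0.37 to 0.84.

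Among anticoagulant genes, *Thbd* encodes thrombomodulin, the surface receptor that binds thrombin, and *Procr* encodes the endothelial protein C receptor, which presents protein C to that complex. *Procr* (ENSMUSG00000027611, chromosome 2, 155751117 to 155755471, plus strand) stood at 10.6 FPKM in NeuroD1 (42 reads) and 8.25 FPKM in GFP (37 reads), a ratio of 1.29 with an interval of 0.807 to 2.06. It had the highest FPKM of the 9 genes in NeuroD1, and 1.32% of chemoreceptor genes reached its level there. *Thbd* (ENSMUSG00000074743) lies on the minus strand of chromosome 2 from 148404466 to 148408188 and stood at 2.48 FPKM in NeuroD1 (18 reads) and 2.31 FPKM in GFP (19 reads).

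The *Thbd* ratio of 1.07 had an interval of 0.531 to 2.16, which spans ratios from well below 1 to above 2. Per length, *Procr* was above *Thbd* in each library, with Poisson intervals of 7.64 to 14.3 FPKM against 1.47 to 3.92 FPKM in NeuroD1 and of 5.81 to 11.4 FPKM against 1.39 to 3.61 FPKM in GFP.

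*Tfpi* encodes tissue factor pathway inhibitor, which blocks factor Xa and the tissue factor complex. It lies on the minus strand of chromosome 2 from 84432855 to 84476775 (ENSMUSG00000027082). It stood at 4.04 FPKM in NeuroD1 (43 reads, interval 2.92 to 5.44 FPKM) and 4.81 FPKM in GFP (58 reads, interval 3.65 to 6.21 FPKM). The intervals overlap, and the ratio was 0.840 (interval 0.553 to 1.27). Its target *F3*, which encodes tissue factor, had 9 reads in NeuroD1 and 8 in GFP, at 1.83 FPKM in NeuroD1 and 1.43 FPKM in GFP; it was chosen once its values were known.

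*Plat* and *Plau* encode the tissue-type and urokinase-type plasminogen activators, the proteases that convert plasminogen to the fibrin-degrading plasmin. *Plat* (ENSMUSG00000031538, chromosome 8, 22757727 to 22782844, plus strand) stood at 8.22 FPKM in NeuroD1 (100 reads, interval 6.68 to 9.99 FPKM) and 11.3 FPKM in GFP (156 reads, interval 9.61 to 13.2 FPKM). It had the highest FPKM of the 9 genes in GFP. The Poisson intervals overlap between 9.61 and 9.99 FPKM, while the ratio was 0.726 (interval 0.559 to 0.939). Widened by the median-based variance between the libraries the interval was 0.520 to 1.01, and by the mean-based one 0.453 to 1.16, both of which hold 1.

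*Plau* (ENSMUSG00000021822, chromosome 14, 20836660 to 20843385, plus strand) stood at 7.80 FPKM in NeuroD1 (36 reads) and 5.93 FPKM in GFP (31 reads), with a ratio of 1.32 and an interval of 0.791 to 2.20. The 2 activators were thus at near equal FPKM in NeuroD1, where *Plau* over *Plat* was 0.949, while in GFP it was 0.524. The ratio between these 2 values, which does not depend on how the libraries are scaled, was 1.81 (exact conditional interval 1.02 to 3.23). It is 1 of 36 such pairs, with no adjustment for their number. Widened by either variance between the libraries, its interval held 1.

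Neurons also express *Plat* and macrophages also express *Plau*. Neuron markers summed to 78.0 FPKM in NeuroD1 and 61.6 FPKM in GFP, with 10 of 14 above 0 in their difference, 2 intervals above 1 (*Slc17a7* and *Snhg11*), none listed at 0, and *Rbfox3*, a neuronal splicing factor, at 31.0 FPKM in NeuroD1 and 26.8 FPKM in GFP. Of the 14, 4 in NeuroD1 and 2 in GFP were above the chemoreceptor 95th percentile. The 16 microglia and macrophage markers summed to 54.5 FPKM in NeuroD1 and 59.7 FPKM in GFP, with 3 of 16 above 0, 1 interval below 1, none listed at 0, and *Tyrobp*, a signalling adaptor, at 17.7 FPKM in NeuroD1 and 11.5 FPKM in GFP. Of the 16, 3 in NeuroD1 and 5 in GFP were above the chemoreceptor 95th percentile. Among protein-coding genes at 1 FPKM or more, 48.4% had a difference above 0. Among those with at least 20 reads, 5.93% had an interval above 1 and 6.22% below. That many reads were reached by 14 neuron markers and 10 microglia and macrophage markers. Each marker sum differed in the direction opposite to that of the activator it is given for, and their part in these values was not tested.

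*Egfl7* encodes a secreted protein that endothelial cells lay down in the matrix and that takes part in vessel tube formation. The gene (ENSMUSG00000026921) lies on the plus strand of chromosome 2 from 26580014 to 26593120. It stood at 9.88 FPKM in NeuroD1 (69 reads, interval 7.69 to 12.5 FPKM) and 5.56 FPKM in GFP (44 reads, interval 4.04 to 7.47 FPKM). The Poisson intervals do not overlap, and the ratio of 1.78 (interval 1.20 to 2.65) was the highest of the 9 genes. Widened by the median-based variance the interval was 1.08 to 2.93, and by the mean-based one 0.872 to 3.62, which holds 1.

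Among 4103 protein-coding genes with a mean of 5 to 10 FPKM, 95.9% had a lower log2(FPKM + 1) difference than *Egfl7*. The sources used here do not say whether reads were counted by strand. The last 64 exonic bases of *Egfl7* also belong to *Agpat2* on the opposite strand, an acyltransferase gene that stood at 12.04 FPKM in NeuroD1 and 17.4 FPKM in GFP. A further 264 exonic bases are shared with *Gm20532*, a gene on the same strand that was listed at 0 in both libraries.

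*Egfl7* also holds the hairpin of the endothelial microRNA miR-126a, whose sequence is shown because it is made from the same primary transcript as the member with the highest ratio. Of 19 annotated *Egfl7* transcripts 9 span the hairpin, which is intronic in 8 of them and exonic in 1. Both miRNA genes at this place, *Mir126a* and *Mir126b*, were listed at 0 in both libraries, so that no level of the microRNA was read from these data. Sequences are from RefSeq (GRCm38.p6), 5′ to 3′, at chr2:26591402-26591423 for the mature arm and chr2:26591357-26591429 for the hairpin, plus strand. Capitals mark the seed, bases 2 to 8, in the first line and the mature arm within the hairpin in the second.
miR-126a-3p: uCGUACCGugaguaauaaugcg
Mir126a hairpin: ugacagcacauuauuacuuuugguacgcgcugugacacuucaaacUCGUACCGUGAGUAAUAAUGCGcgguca

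*Nos3* encodes endothelial nitric oxide synthase, whose product relaxes vessels and inhibits platelets. It lies on the plus strand of chromosome 5 from 24364810 to 24384474 (ENSMUSG00000028978). It stood at 2.73 FPKM in NeuroD1 (22 reads, interval 1.71 to 4.13 FPKM) and 3.51 FPKM in GFP (32 reads, interval 2.40 to 4.95 FPKM). The intervals overlap, the ratio was 0.779 (interval 0.431 to 1.38), and 16.9% of chemoreceptor genes in NeuroD1 and 9.04% in GFP were at or above its level. Of its 4132 exonic bases 1040 are shared with the antisense gene *Gm15587*, at 2.59 FPKM in NeuroD1 and 1.81 FPKM in GFP, and 294 with *Atg9b*, an autophagy gene on the other strand at 2.73 FPKM in NeuroD1 and 4.02 FPKM in GFP. Without strand, reads of *Nos3* and of these genes cannot be told apart within the shared bases.

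**Figure D2:**
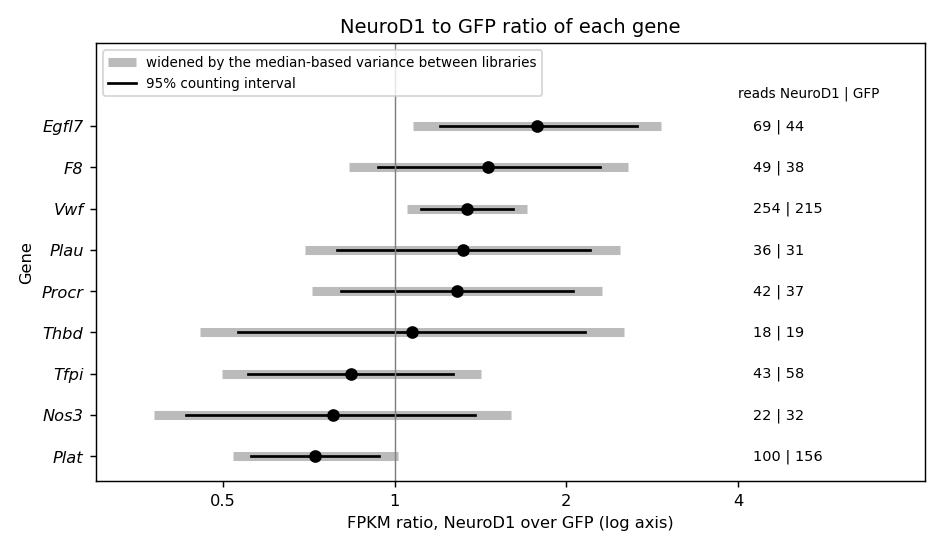
FPKM ratio of NeuroD1 over GFP for the 9 genes on a log axis, with the Clopper-Pearson 95% counting interval (black) and the interval widened by the median-based variance between the libraries (grey); the recovered reads of each library are printed at the right. The widened intervals of *Egfl7* and *Vwf* lie above 1 and that of *Plat* reaches 1.01.

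By level per length, the genes ran in NeuroD1 in the order *Procr*, *Egfl7*, *Plat*, *Vwf*, *Plau*, *Tfpi*, *Nos3*, *F8* and *Thbd*, and the only neighbours whose Poisson intervals did not overlap were *Plau* and *Tfpi*. In GFP the order was *Plat*, *Procr*, *Vwf*, *Plau*, *Egfl7*, *Tfpi*, *Nos3*, *Thbd* and *F8*, and the intervals of all neighbours overlapped. Of the 36 pairs of genes, the intervals overlapped for 16 in each library. By recovered reads *Vwf* was first in both, at 254 in NeuroD1 and 215 in GFP, while *Procr* had 42 in NeuroD1 and 37 in GFP. The order thus depends on dividing by exon length, and whether this suits the reverse transcription primers used was not tested.

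Ratios between 2 genes within a library do not depend on the scaling between libraries. Of the 36 pairs, 8 had a ratio that differed between NeuroD1 and GFP beyond counting error, and 5 of those 8 involved *Plat*, so these pairs are not independent of each other. With a normal interval on the log scale, which also took 8 of the 36, 13.5% of all pairs among 14789 protein-coding genes differed beyond counting error. *Egfl7* over *Plat* was 1.20 in NeuroD1 and 0.492 in GFP, the largest such difference at 2.45-fold (exact conditional interval 1.52 to 3.96). *Vwf* over *Plat* was 0.987 in NeuroD1 and 0.535 in GFP (1.84-fold, interval 1.34 to 2.54). *F8* over *Plat* and *Procr* over *Plat* were 2.01-fold and 1.77-fold higher in NeuroD1. *Egfl7* was 2.28-fold higher relative to *Nos3* and 2.12-fold higher relative to *Tfpi*. Ratios with *F8* or *Nos3* are free of the scaling but not of low-level reads, as both genes lay within the chemoreceptor range in both libraries. The 36 intervals were not adjusted for their number. Widened by the median-based variance between the libraries, 4 pairs were left, *Egfl7* with *Plat* or *Tfpi* and *F8* and *Vwf* each with *Plat*, against 4.43% of all pairs, and widened by the mean-based one 2 were, *Egfl7* and *Vwf* each with *Plat*, against 0.336%. These shares over all pairs include genes with fewer reads than *Plat* and *Vwf*, and widened intervals were applied to pairs after the data were seen.

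On the log2(FPKM + 1) scale the differences of NeuroD1 minus GFP ran from -0.42 for *Plat* to 0.73 for *Egfl7*; the pseudocount of 1 shrinks the differences of genes at low FPKM. Of 20697 protein-coding genes at 1 FPKM or more in one library or both, 48.4% had a difference above 0, and their median was -0.016. Among the 9 genes the differences of 6 were above 0 and those of 3 below, with a median of 0.33. *Thbd*, at 0.07, was one of those above 0 and turned to -0.095 once FPKM were rescaled to an equal total, a setting that moved the median of all those protein-coding genes to -0.20. At 5 FPKM or more in one library or both, 5 members were left, *Vwf*, *Procr*, *Plat*, *Plau* and *Egfl7*, and none differed by 1 or more on this scale, while *Egfl7* alone was at least 1.5-fold higher on it. Of all 14679 genes past that minimum 12.9% were higher and 15.6% lower by this rule, and of the 6408 protein-coding ones 3.25% were higher and 3.31% lower. At 1.5-fold, 10.2% of the protein-coding ones were higher.

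By the interval rule 2 of the 9 members were higher in NeuroD1 and 1 was lower, all 9 having at least 20 reads over both libraries. The same rule took 5.93% of 14791 protein-coding genes as higher and 6.22% as lower, 12.1% in all. The share was larger for genes with more reads, at 11.2% for genes with 50 to under 100 reads, 12.9% with 100 to under 200 reads and 19.3% with 200 to under 500 reads, and the 3 members have 113 reads (*Egfl7*), 256 reads (*Plat*) and 469 reads (*Vwf*) over both libraries. With the interval widened by the median-based variance, 2 members were higher and none was lower, against 4.93% of all such genes in either direction. With the mean-based variance no member passed, against 0.629%.

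**Figure D3:**
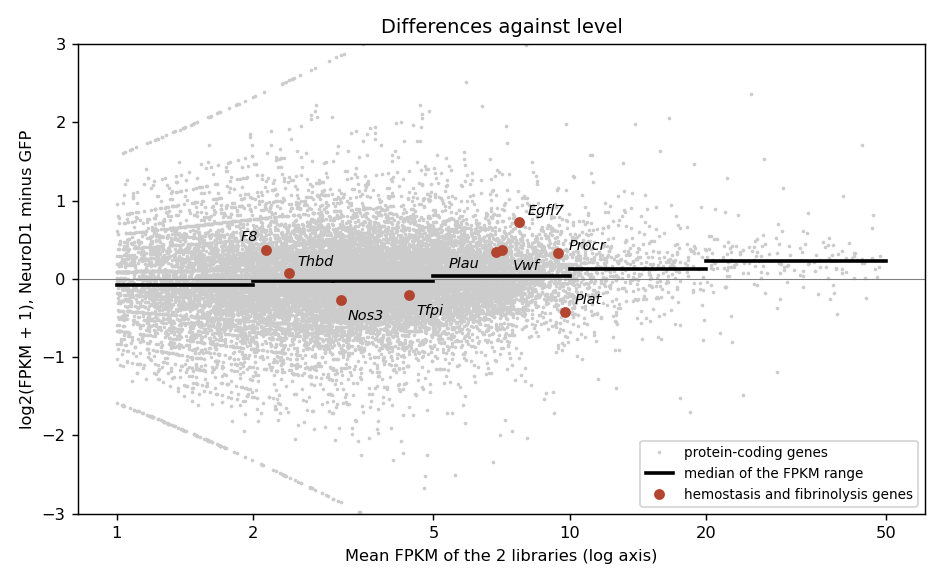
Difference in log2(FPKM + 1), NeuroD1 minus GFP, against the mean FPKM of the 2 libraries on a log axis, for protein-coding genes (grey) and the 9 genes (red, named). Black bars are medians of protein-coding genes, which go from -0.07 at 1 to 2 FPKM to 0.23 at 20 to 50 FPKM; *Egfl7* lies above and *Plat* below most genes of their level.

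Differences of protein-coding genes depended on their level, which bears on the members above 5 FPKM. Genes of 3 to 5 FPKM had a median difference of -0.03, and those of 5 to 10 FPKM, the range of 5 members, one of 0.03. Relative to genes of their own FPKM range, 83.7% of genes had a lower difference than *Vwf*, 82.4% than *Plau*, 81.0% than *Procr* and 11.6% than *Plat*. Among genes of 2 to 3 FPKM 83.5% had a lower difference than *F8* and 59.6% than *Thbd*, and at 3 to 5 FPKM 31.6% had a lower one than *Tfpi* and 25.6% than *Nos3*.

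The wider pathway was described by 6 lists of genes. Their counts above 0 stand beside 48.4% of the 20697 protein-coding genes at 1 FPKM or more. Their interval counts stand beside 5.93% above 1 and 6.22% below among protein-coding genes with at least 20 reads. Of 18 coagulation factors and enzymes that modify them, 11 were above 0, and the median difference was 0.20. None of 5 past the 5 FPKM minimum differed by 1 or more, and 0 of 12 with enough reads had an interval above 1 and 1 below. Above the chemoreceptor 95th percentile were 4 of the 18 in NeuroD1 and 7 in GFP. The carboxylase *Ggcx*, which activates vitamin K-dependent factors, stood at 10.6 FPKM in NeuroD1 and 8.09 FPKM in GFP (interval of the ratio 0.907 to 1.89). *F7*, the partner of tissue factor, stood at 6.90 FPKM in NeuroD1 and 5.11 FPKM in GFP, *F12*, which starts the contact pathway, at 7.06 FPKM in NeuroD1 and 8.55 FPKM in GFP, and *F10* at 3.94 FPKM in NeuroD1 and 5.64 FPKM in GFP, all with intervals that held 1. *F5*, a cofactor of factor Xa, was the 1 gene below, at 3.31 FPKM in NeuroD1 and 4.996 FPKM in GFP (ratio 0.663, interval 0.454 to 0.958), and was picked for that interval.

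Of 11 other anticoagulant genes 4 were above 0, with a median of -0.10, and none of 10 with enough reads had an interval that excluded 1. Above the chemoreceptor 95th percentile were 4 of the 11 in NeuroD1 and 6 in GFP. *Proc*, which encodes protein C, the ligand of the *Procr* product, stood at 1.96 FPKM in NeuroD1 and 6.07 FPKM in GFP, the only gene of the 6 lists past the 5 FPKM minimum to differ by 1 or more (-1.25), and its reads were not recovered, so it has no interval. *Serpina5*, the protein C inhibitor, stood at 29.9 FPKM in NeuroD1 and 28.3 FPKM in GFP (interval 0.823 to 1.36), *Serpina10*, an inhibitor of factor Xa, at 11.6 FPKM in NeuroD1 and 9.45 FPKM in GFP, and *Anxa5*, an annexin that shields phospholipid, at 3.46 FPKM in NeuroD1 and 5.35 FPKM in GFP.

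In the plasminogen system 3 of 13 genes were above 0 and the median was -0.36, against -0.016 for protein-coding genes. Only 3 of the 13 in NeuroD1 and 5 in GFP were above the chemoreceptor 95th percentile, so most lay within that range. The list includes genes of very few reads, such as *Serpinb2* with 1 in NeuroD1 and 6 in GFP. For those at 5 FPKM or more the median was -0.43. None of the 4 past the minimum differed by 1 or more, and of 10 with enough reads 1 had an interval below 1. *Plaur*, the urokinase receptor, stood at 5.29 FPKM in NeuroD1 and 7.96 FPKM in GFP (ratio 0.665, interval 0.397 to 1.09), *Anxa2*, part of a plasminogen receptor, at 4.40 FPKM in NeuroD1 and 6.43 FPKM in GFP (interval 0.427 to 1.08), and *Serpinf2*, the main plasmin inhibitor, at 5.52 FPKM in NeuroD1 and 7.60 FPKM in GFP (interval 0.421 to 1.23). The gene with the interval below 1 was *Lrp1*, a receptor that clears activators bound to their inhibitors, at 3.24 FPKM in NeuroD1 and 4.45 FPKM in GFP (ratio 0.729, interval 0.570 to 0.930), and was picked for that interval.

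Of 15 genes matched for storage, secretion and cleavage of von Willebrand factor and transport of its partners, 6 were above 0, with a median of -0.05. None of 12 with enough reads had an interval that excluded 1. Above the chemoreceptor 95th percentile were 5 of the 15 in NeuroD1 and 7 in GFP. *Stx4a*, part of the secretory machinery, stood at 5.64 FPKM in NeuroD1 and 7.85 FPKM in GFP, with an interval of the ratio of 0.422 to 1.20. *Mcfd2*, a cargo receptor subunit for factor VIII, stood at 4.12 FPKM in NeuroD1 and 6.07 FPKM in GFP with no recovered reads. *Mia3* and *Vamp8* stood at 7.17 and 6.88 FPKM in NeuroD1 and at 6.74 and 6.86 FPKM in GFP.

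The list of 7 thrombin receptors and their signalling partners had a median of -0.04, with 3 above 0. Of 5 with enough reads 1 had an interval above 1. Above the chemoreceptor 95th percentile were 1 of the 7 in NeuroD1 and 2 in GFP. *Gna11*, a G protein subunit, stood at 5.13 FPKM in NeuroD1 and 4.75 FPKM in GFP, and *Arrb2*, an arrestin, at 4.69 FPKM in NeuroD1 and 5.09 FPKM in GFP. The interval above 1 was that of *F2rl2*, which encodes the receptor PAR3, with 20 reads in NeuroD1 and 8 in GFP (ratio 2.83, interval 1.19 to 7.43) and levels of 4.10 FPKM in NeuroD1 and 1.45 FPKM in GFP, within the chemoreceptor range in both. It was picked for that interval.

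Of 20 genes around nitric oxide and other platelet inhibitors 7 were above 0, with a median of -0.04, and none of 11 past the minimum differed by 1 or more. All 20 had enough reads, and 1 interval lay above and 1 below 1. Above the chemoreceptor 95th percentile were 11 of the 20 in each library. *Hsp90ab1* and *Hsp90aa1*, chaperones that bind the synthase, stood at 37.1 and 15.0 FPKM in NeuroD1 and at 39.2 and 15.1 FPKM in GFP. *Ddah2*, which breaks down inhibitors of the synthase, stood at 3.86 FPKM in NeuroD1 and 5.40 FPKM in GFP and *Ptgs2*, a prostaglandin synthase, at 5.15 FPKM in NeuroD1 and 4.35 FPKM in GFP, both with intervals that held 1. *Nos1*, the neuronal synthase, was the gene with an interval below 1, at 2.94 FPKM in NeuroD1 and 4.30 FPKM in GFP (ratio 0.684, interval 0.493 to 0.941), and was picked for that interval. Its level was within the chemoreceptor range in both libraries.

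**Figure D4:**
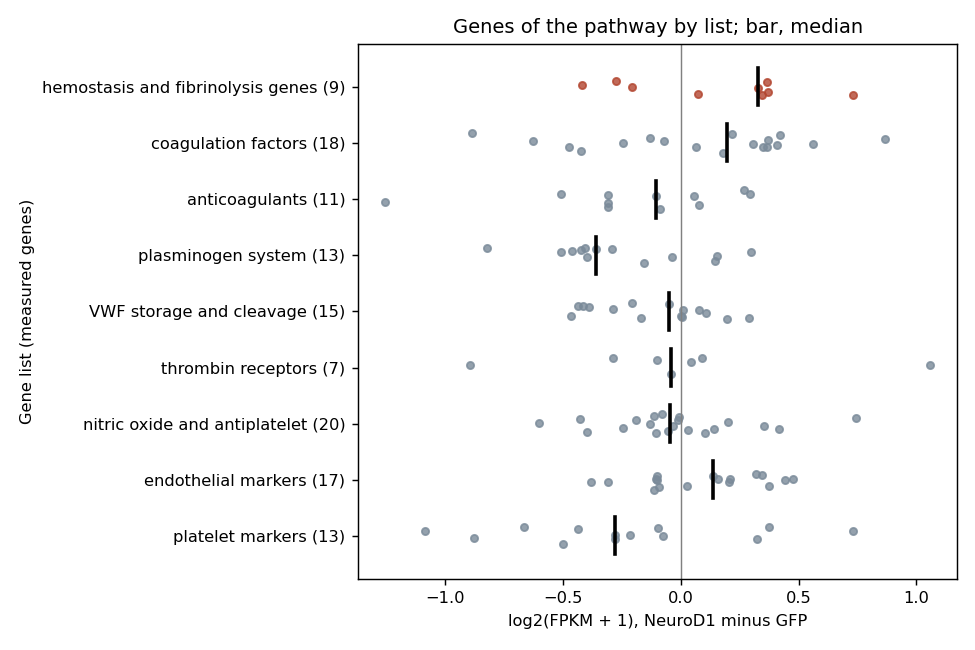
Difference in log2(FPKM + 1), NeuroD1 minus GFP, of each gene at 1 FPKM or more in one library or both, by list, with the number of measured genes in brackets and the median as a black bar. The 9 genes have a median of 0.33, the 13 plasminogen system genes -0.36, the 17 endothelial markers 0.14 and the 13 platelet markers -0.28.

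The 17 endothelial markers, set beside the members as a measure of the endothelial share of each library, summed to 247.7 FPKM in NeuroD1 and 227.05 FPKM in GFP. Of these 10 were above 0, against 48.4% of protein-coding genes at 1 FPKM or more, and their median difference was 0.14. Of 16 with at least 20 reads, 3 had an interval above 1 and none below, against 5.93% above and 6.22% below for such protein-coding genes. *Ly6c1*, a surface protein of brain endothelium, stood at 60.8 FPKM in NeuroD1 and 48.6 FPKM in GFP (ratio 1.25, interval 1.02 to 1.54). It had the highest FPKM of the list in each library, so it weighed most in the sum. *Tek* (ratio 0.743, interval 0.532 to 1.03) and *Tie1* (ratio 0.773, interval 0.512 to 1.16) were lower in NeuroD1, with intervals that held 1, and were picked for that direction. With the libraries scaled to the same endothelial sum the ratio was 1.63 for *Egfl7* (interval 1.10 to 2.43), 1.23 for *Vwf* (interval 1.02 to 1.48) and 0.665 for *Plat* (interval 0.512 to 0.861), so that the 3 members past the counting interval were the same 3 as before, a setting chosen after the data were seen.

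Markers of 4 further cell types, none of them listed at 0, did not all move one way within a list. Their interval counts stand beside 5.93% above 1 and 6.22% below among protein-coding genes with at least 20 reads. That many reads were reached by 8 neutrophil, 8 mural cell, 8 astrocyte and 5 erythroid markers. Neutrophil markers summed to 82.8 FPKM in NeuroD1 and 80.9 FPKM in GFP, and 4 of 11 in NeuroD1 and 7 of 11 in GFP were above the chemoreceptor 95th percentile. *Ngp*, a granule protein, stood at 21.8 FPKM in NeuroD1 and 19.3 FPKM in GFP, above each of the 9 genes in both libraries, and *S100a9*, a calcium-binding protein, at 20.6 FPKM in NeuroD1 and 10.4 FPKM in GFP. The neutrophil list had 1 interval below 1, that of the protease gene *Elane*, at 1.56 FPKM in NeuroD1 and 11.96 FPKM in GFP (ratio 0.131, interval 0.0253 to 0.426), and *Retnlg*, with no recovered reads, stood at 10.96 FPKM in NeuroD1 and 3.72 FPKM in GFP.

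Mural cell markers summed to 35.2 FPKM in NeuroD1 and 40.3 FPKM in GFP, with 2 intervals below 1. The channel gene *Kcnj8* stood at 0.604 FPKM in NeuroD1 and 3.38 FPKM in GFP (ratio 0.179, interval 0.0339 to 0.608). *Des*, which encodes desmin, stood at 1.64 FPKM in NeuroD1 and 3.38 FPKM in GFP (ratio 0.485, interval 0.225 to 0.986). Both genes were within the chemoreceptor range in both libraries, and 2 of 12 mural markers were above its 95th percentile in each library. Astrocyte markers summed to 25.4 FPKM in NeuroD1 and 26.03 FPKM in GFP, with 1 interval above 1 and 1 below. Above was the glutamate transporter gene *Slc1a2*, at 2.34 FPKM in NeuroD1 and 0.724 FPKM in GFP (ratio 3.24, interval 1.94 to 5.60). Below was *Aldh1l1*, at 1.25 FPKM in NeuroD1 and 3.31 FPKM in GFP (ratio 0.378, interval 0.172 to 0.766). Both genes were within the chemoreceptor range in both libraries. Of the 10 astrocyte markers, 0 in NeuroD1 and 1 in GFP were above its 95th percentile. Erythroid markers summed to 33.5 FPKM in NeuroD1 and 47.2 FPKM in GFP, with 1 interval below 1, that of the globin gene *Hbb-bs*, at 4.01 FPKM in NeuroD1 and 13.6 FPKM in GFP (ratio 0.295, interval 0.0984 to 0.746). Of the 7 erythroid markers found, 3 in NeuroD1 and 4 in GFP were above the chemoreceptor 95th percentile. Markers named for their intervals or ratios were picked once their values were known. The part of these cell types in the members' values was not tested.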

How the data were processed

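The values are FPKM as deposited by the authors, in 1 table with a column for each library. Tools named in the submitters' processing notes are featureCounts 1.6.3, Bowtie2 2.3.5.1 and DESeq, with GRCm38 as the build. Per the labels' protocols RNA was reverse transcribed with DRUG-seq primers. The handling of strand, multi-mapping reads and molecular identifiers is not given in the sources. FPKM times merged exon length (GENCODE M21, GRCm38) came in whole multiples of a fixed unit in each library, within 0.02 reads for 51075 genes (95.5%) in both. Reads rose with exon length across protein-coding genes, which are not replicates (Spearman rho 0.736 in NeuroD1 and 0.758 in GFP). They also did so across chemoreceptor genes (rho 0.642 in NeuroD1 and 0.695 in GFP), so this rise was present in the low-level reference as well. FPKM were used as deposited with a pseudocount of 1. Read recovery and intervals were tested on simulated data with counting error only. That test cannot show how the counting intervals hold under the larger variance between these libraries. The widened intervals use a normal approximation on the log ratio.

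The members and lists were chosen with earlier results of these data known. Named genes were all members, *Neurod1*, *Pecam1*, *Cldn5*, and per pathway list up to 3 with the largest difference at 5 FPKM or more and 2 with the highest mean FPKM, and per marker list the 2 highest, of which some are given as sums only. Some genes that this rule names are not reported here. The symbols *Clec4m* and *Ahsp* had no match, and 2 others were matched by gene ID. Alternatives were other pseudocounts, scalings, minimums and interval widths. Software was matplotlib 3.10.9, pandas 2.3.3, scipy 1.17.1 and numpy 2.4.6 under Python 3.11.15.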

Additional observations from a re-analysis of the deposited data

How the results depend on the processing

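No paired analysis was possible because there is 1 library in each group, and for the same reason none could be left out. The number of members with an interval above 1, 2 at first, was 1 when FPKM were rescaled to an equal total, which leaves *Egfl7*, and 0 with the interval widened by the mean-based variance between the libraries. That number stayed at 2 when reads were scaled by size factors taken from the median ratio between the libraries. The number below 1, 1 at first, was 0 with the interval widened by that variance and 0 with the median-based one, a width chosen after seeing the data. Of the 8 ratios between 2 members that differed, 4 were left with the median-based and 2 with the mean-based variance. Wider intervals bring these losses by construction. No member differed by 1 or more in log2(FPKM + 1) under any pseudocount, scaling or minimum run, and 1, *Egfl7*, was higher at a 1.5-fold threshold. All 72 alternative values of single members stayed within their counting intervals, which are wide, so this does not measure stability. They ran from 0.49 to 0.92 for *Egfl7*, 0.16 to 0.48 for *Vwf* and -0.63 to -0.30 for *Plat*. Scaling to the same endothelial sum, chosen after seeing the data, moved the median of protein-coding genes to -0.11 and *Thbd* to -0.017. The depth of 18 to 49 reads per library for *Thbd*, *Nos3*, *Plau*, *Procr* and *F8* limits what could be told there.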
